A study of Mus musculus with 2 samples.

Results

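The cytosolic ribosomal protein genes of sorted mouse microglia were compared in mice with (WT) and without (KO) PARK7/DJ-1 that had all been given lipopolysaccharide (LPS), a component of bacterial membranes, 24 h earlier. They were chosen by symbol alone, as genes named Rpl, Rplp or Rps with a number, or Rpsa, without symbols that hold "-ps" and without the Rps6k kinases. Of 88 such symbols, 83 had at least 20 UMIs (unique molecular identifiers, each marking 1 captured transcript molecule) over both libraries, among 9085 genes of 19537 listed that reached this minimum. The 83 genes were 48 of the large subunit (Rpl and Rplp) and 35 of the small subunit (Rps and Rpsa). The 5 symbols under the minimum were Rpl3l with 0 UMIs in both libraries, Rpl10l with 2 UMIs in KO cells and 3 in WT cells, Rpl28 with 3 and 9, Rpl39l with 1 and 5, and Rps27 with 1 and 15. RefSeq listed all 83 and marked 3 of them as pseudogenes (Rps3a2, Rps3a3 and Rps4y2, there named Rps4l). The rule also takes in Rps19bp1, which encodes a partner of Rps19 and of the deacetylase Sirt1 rather than a part of the ribosome, and Rpl7l1, a relative of Rpl7 that works in the assembly of the large subunit in the nucleolus.

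The ribosome reads mRNA on its small subunit and joins amino acids on its large subunit, and each subunit is built from rRNA and a fixed set of proteins that a cell needs mostly in equal numbers. The mRNAs of these proteins are short and abundant, and most begin with a run of pyrimidines (the 5′ terminal oligopyrimidine, or TOP, tract) through which mTOR signalling sets how much of them is translated. In microglia, as in other macrophages, the production of ribosomes is tied to growth and to the response to inflammatory signals.

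CD11b+CD45int cells were sorted from brain and captured by Drop-seq, which counts the 3′ ends of transcripts in droplets. The KO LPS group carried the gene-trap allele Park7Gt(XE726)Byg on a C57BL/6NCrl background, and the WT LPS group were wildtype littermates. All mice were 3 to 4 months old and had received 4 μg LPS per g of body weight, so that no untreated group entered the comparison. There was 1 library per genotype, each of 2 mice (a female and a male) pooled, hence genotype and library cannot be told apart, no test between genotypes was made, and every interval is a 95% interval of counting error only.

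A barcode with at least 500 UMIs and 100 genes was taken as a cell. This gave 320 cells with 381305 UMIs in the KO library (a median of 963.5 UMIs per cell) and 1427 cells with 1989011 UMIs in the WT library (a median of 1065), and no cell barcode was shared between them. Park7, the targeted gene, had 323 UMIs in the WT LPS library and 1 UMI in the KO LPS library. The microglial markers Cx3cr1, Csf1r, C1qa, C1qb, P2ry12, Tmem119, Trem2, Aif1 and Itgam were detected in both libraries, and their levels differed between them in both directions. Cx3cr1 had 6601 CPM in KO cells and 3870 CPM in WT cells (CPM, UMIs per 1000000 UMIs of the library's cells), P2ry12 had 3837 and 406 CPM, and C1qa had 2840 and 5298 CPM. Their part in the results was not tested. The choroid plexus markers Ttr, Enpp2 and Kl had 802 UMIs in KO cells and 27 in WT cells, and 730 of the 802 lay in 1 cell. The neutrophil markers (4 listed, 2 with at least 20 UMIs) had 0 UMIs in KO cells and 126 in WT cells, and the 3 astrocyte markers that reached 20 UMIs, of 5 listed, summed to 362 and 168 CPM. The markers of monocytes, lymphocytes, erythroid cells, oligodendrocytes, endothelial cells and neurons that reached 20 UMIs summed to at most 42.0 CPM per list, and the part of the astrocyte and neutrophil markers in the results was not tested.

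Ribosomal protein transcripts took a 1.95-fold larger share of the UMIs in WT cells than in KO cells. The 83 genes held 5224 UMIs in KO cells, 1.37% of all UMIs in cells (exact binomial interval 1.33 to 1.41), and 53012 UMIs in WT cells, 2.67% (2.64 to 2.69). The KO share was 0.514 times the WT share (exact conditional binomial interval 0.500 to 0.529). Without the pseudogenes, Rps19bp1 and Rpl7l1, the ratio of the remaining 78 genes was 0.509. Without the cell rich in choroid plexus UMIs the share in KO cells was also 1.37%, and in the 255 KO LPS cells with no UMI of these markers it was 1.35% (1.31 to 1.39). In bulk sums such as these, fewer cells with a high share and a lower share per cell give the same value, and the distribution over cells follows.

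The difference was present in the bulk of the cells rather than in a few. The share of a cell's UMIs that came from ribosomal protein genes had a median of 1.30% in KO cells (quartiles 0.795 and 1.77%) and 2.57% in WT cells (quartiles 1.71 and 3.17%), so that the upper quartile of KO LPS lay close to the lower quartile of WT LPS. The ranges overlapped, with highest values of 5.13% in KO cells and 6.22% in WT cells, and 8 and 3 cells without a ribosomal protein UMI. With every cell thinned to 500 UMIs the medians were 1.20% and 2.40%. At that depth the variance between cells was 2.56 times that of binomial sampling in KO cells and 3.02 times in WT cells, which means that cells of the same library differed in this share beyond counting error.

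**Figure D1:**
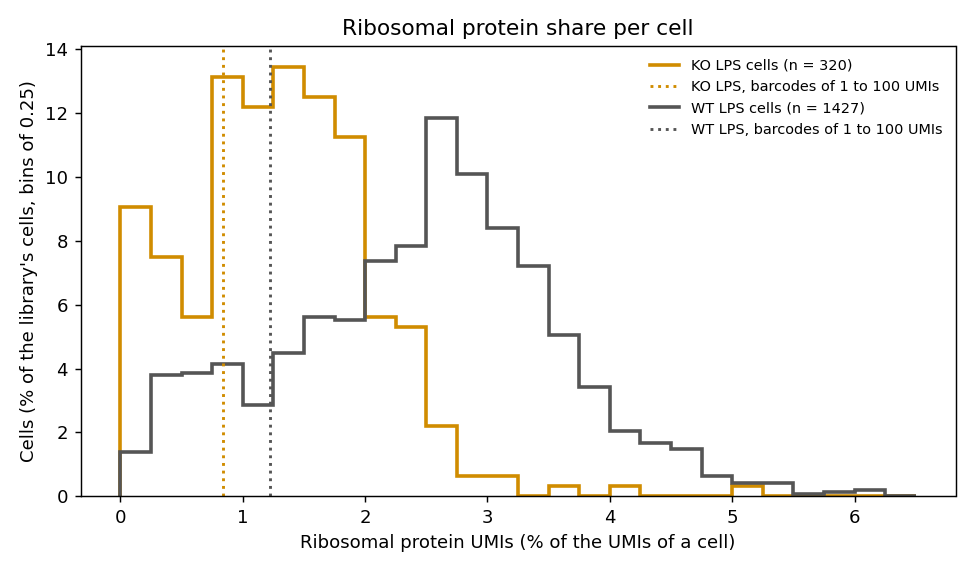
Share of each cell's UMIs (%) that came from the 83 ribosomal protein genes, drawn as the percentage of the cells of each library per bin of 0.25 points, with dotted lines at the share in barcodes of at most 100 UMIs. The KO LPS cells centre on 1.30% and the WT LPS cells on 2.57%, and in both libraries a tail of cells runs past the dotted lines at 0.836% and 1.22% down to 0, with 85 of 320 KO and 226 of 1427 WT cells at or below the line of their library.

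Free RNA was read from barcodes with at most 100 UMIs, which were taken to hold RNA of the suspension rather than a cell. Ribosomal protein genes made up 0.836% of these UMIs in the KO library and 1.22% in the WT library, a ratio of 0.684 (0.646 to 0.725), so the cells held 1.64 times (1.55 to 1.73) and 2.18 times (2.11 to 2.25) the share of the free RNA of their own library. In the KO library 85 of 320 cells (26.6%) had a share at or below that of the free RNA, and in the WT library 226 of 1427 (15.8%). Among cells with at least 1000 UMIs these were 26 of 148 (17.6%) and 49 of 770 (6.36%). With the free RNA profile subtracted from the cells, the ratio of the summed shares was 0.497. The subtraction took the ribosomal protein UMIs from 5224 to 5176 in KO cells and from 53012 to 51303 in WT cells. It was therefore small and of unequal size in the libraries, and larger amounts of free RNA were not tested.

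The share rose with the depth of the barcode in both libraries, and KO LPS was lower at each depth. From cells of 500 up to 750 UMIs to cells of at least 2000 UMIs it went from 1.12 to 1.52% in KO cells and from 1.94 to 2.96% in WT cells. The ratio was 0.574 (0.528 to 0.623) in the shallowest of these classes, 0.533 at 750 up to 1000 UMIs, 0.530 at 1000 up to 2000 UMIs and 0.513 (0.486 to 0.541) in the deepest. In barcodes of 300 up to 500 UMIs, below the minimum for a cell, the shares were 0.899% and 1.61%.

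**Figure D2:**
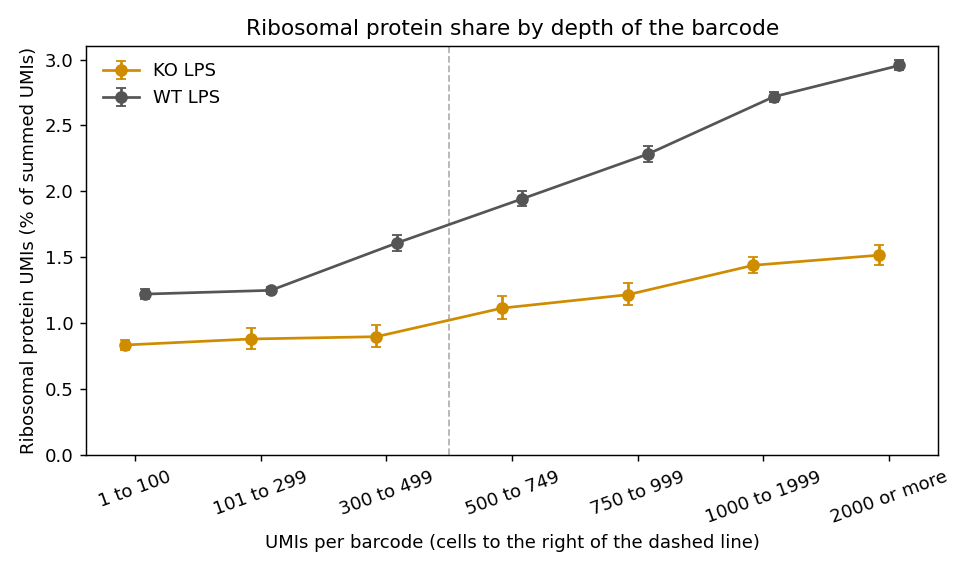
Share of the summed UMIs (%) that came from ribosomal protein genes, for barcodes in 7 classes of UMIs per barcode in the KO LPS and WT LPS libraries, with exact 95% binomial intervals as bars (counting error only) and a dashed line at the minimum of 500 UMIs for a cell. KO LPS lies under WT LPS in every class, from 0.836 against 1.22% in the shallowest to 1.52 against 2.96% in the deepest.

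The lower share was spread over nearly the whole set. Of the 83 genes, 80 had a lower CPM in KO cells, against 48.7% of the 9085 genes, and 62 were lower by at least 1.5-fold, against 25.8%. At least 2-fold lower were 40, against 15.3% of all genes. At least 1.5-fold higher in KO cells were 2, the pseudogenes Rps4y2 and Rps3a2, against 26.2% of all genes. The log2 ratio (KO LPS over WT LPS, prior count of 0.5) had a median of -0.97 over the 83 genes, with quartiles of -1.30 and -0.58 and a range from -2.61 to 0.72, and a median of 0.03 over all genes. These counts and medians describe 2 libraries, and genes of 1 library are not replicates.

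The order of the genes by level was much the same in both libraries. Across the 83 genes the CPM in both libraries had a Spearman rho of 0.945, and across all 9085 genes 0.781. The levels ran from 5.25 to 700.2 CPM in KO cells with a median of 147 CPM, and from 8.55 to 1144 CPM in WT cells with a median of 276 CPM. Since each molecule is tagged once at its 3′ end, these levels need no scaling by transcript length. The 10 genes with most UMIs held 35.0% of all ribosomal protein UMIs in KO cells and 33.8% in WT cells. Among the 200 most abundant genes of a library, 3 were ribosomal protein genes in KO cells and 18 in WT cells. Precision was limited in KO cells, where 67 of the 83 genes had under 100 UMIs, against 17 in WT cells.

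**Figure D3:**
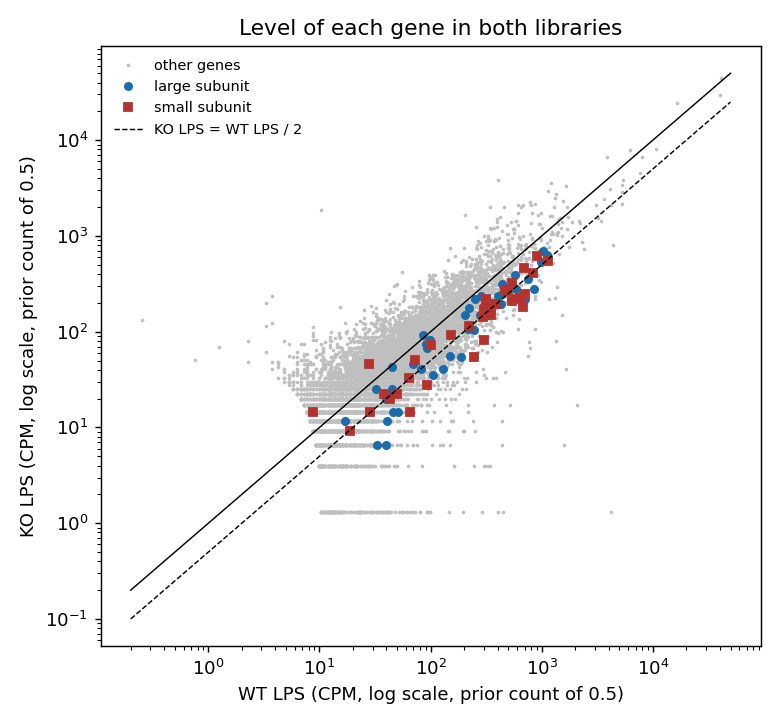
Level of each of the 9085 genes in WT LPS (x axis) and KO LPS (y axis), in CPM with a prior count of 0.5, both axes logarithmic, with large subunit genes as blue circles, small subunit genes as red squares and other genes in grey. The ribosomal protein genes scatter around the dashed line, where KO LPS has 1/2 of the level in WT cells, and 80 of 83 lie below the solid line of equal levels.

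The genes were not all lower by the same factor. Among the 59 with at least 200 UMIs, the log2 ratios had an SD of 0.48, where counting error alone gives 0.21, and the SD over all 2462 genes with at least 200 UMIs was 1.13. The ribosomal protein genes were closer to each other than genes at large, and still differed among themselves by more than counting error.

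The letters around the transcription starts were read from RefSeq (GRCm38.p6), since the TOP tract that the family is known for begins there. The promoter table held a start for 60 of the 83 genes. At least 1 TOP-type run, taken as the letters CTCTTT, as the letters CTTTTC, or as the letters CTTTCC, stood on the gene's own strand within 50 bases of a start in 33 of the 60 (55.0%), and in 12.6% of 27025 genes with an entry. These runs overlap one another, and on the opposite strand they stood in 8.33% and 11.8%. CCGGAA, the core letters that Ets factors bind, stood on either strand in 33.3% of the 60 and in 9.24% of all. Shown next are 60 bases around the start for 4 genes that hold a run at or just after the start and for 4 of the genes with the lowest or highest ratios, with the start as base 31, 5′ to 3′ on the gene's strand, and TOP-type runs in capitals.
Rps6, chr4:86857338-86857397, minus strand: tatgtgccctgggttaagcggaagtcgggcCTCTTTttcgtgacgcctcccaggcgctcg
Rpl38, chr11:114668550-114668609, plus strand: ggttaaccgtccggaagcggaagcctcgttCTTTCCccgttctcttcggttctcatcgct
Rpl18, chr7:45718041-45718100, plus strand: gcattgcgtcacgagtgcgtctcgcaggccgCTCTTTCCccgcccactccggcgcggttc
Rps10, chr17:27635215-27635274, minus strand: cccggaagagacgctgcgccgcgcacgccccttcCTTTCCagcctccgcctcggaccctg
Rps28, chr17:33824533-33824592, minus strand: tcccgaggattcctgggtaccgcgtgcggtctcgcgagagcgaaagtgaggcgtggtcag
Rps2, chr17:24720033-24720092, plus strand: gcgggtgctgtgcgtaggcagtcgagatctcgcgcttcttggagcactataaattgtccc
Rpl24, chr16:55966245-55966304, plus strand: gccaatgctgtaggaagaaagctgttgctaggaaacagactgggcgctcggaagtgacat
Rpl23, chr11:97782410-97782469, minus strand: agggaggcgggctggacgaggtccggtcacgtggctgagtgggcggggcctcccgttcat
The last 4 windows hold none of the TOP-type runs, whether the gene was among the lowest (Rps28, Rps2) or the highest (Rpl24, Rpl23). The 33 genes with 1 of these runs had a median log2 ratio of -0.87, and 26 of them were at least 1.5-fold lower in KO cells. The 27 genes without any of these runs had a median of -1.0, and 20 were at least 1.5-fold lower. Over all 9085 genes the share at least 1.5-fold lower was 25.8%. With CCGGAA the median was -0.76 (20 genes) and without it -1.0 (40 genes). A run of letters is a description of the window and not a mapped start or a binding site. The letters searched miss other pyrimidine runs, such as ctctcttcc at the start of Rps18, and also count before a start. The split by these runs therefore does not separate mRNAs with a TOP tract from those without one.

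Both subunits were lower, the small subunit slightly more. Large subunit genes made up 0.785% of UMIs in KO cells (0.757 to 0.813) and 1.46% in WT cells (1.44 to 1.48), a ratio of 0.538 (0.518 to 0.559). Of these genes 34 of 48 were at least 1.5-fold lower, against 25.8% of all 9085 genes. Small subunit genes made up 0.585% (0.561 to 0.610) and 1.21% (1.19 to 1.22), a ratio of 0.485 (0.464 to 0.507), and 28 of 35 were at least 1.5-fold lower, against the same 25.8%. The ratio of large to small subunit UMIs was hence 1.34 in KO cells (1.27 to 1.42) and 1.21 in WT cells (1.19 to 1.23), a quotient of 1.11 (1.05 to 1.17). In cells of 500 up to 750 UMIs, where KO cells held 361 large and 293 small subunit UMIs, the quotient was 0.976. In each of the deeper classes the ratio of large to small subunit UMIs was higher in KO cells. Whether the direction depends on depth was not tested.

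The members with most UMIs were lower in KO cells by different factors. Rps9, a small subunit protein needed for accurate decoding, had 209 UMIs in KO cells and 2276 in WT cells, or 548 and 1144 CPM, a log2 ratio of -1.06. Rpl4, which lines the exit tunnel of the large subunit, had 635 CPM (557 to 720) and 1107 CPM (1061 to 1154), a log2 ratio of -0.80. Rpl13a, a large subunit protein that interferon-treated myeloid cells also use to silence translation of inflammatory mRNAs, had 700.2 CPM (619 to 789) and 1028 CPM (984 to 1074), a log2 ratio of -0.55. The intervals of the ratios of Rps9 (0.414 to 0.552) and Rpl13a (0.597 to 0.774) did not overlap.

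**Figure D4:**
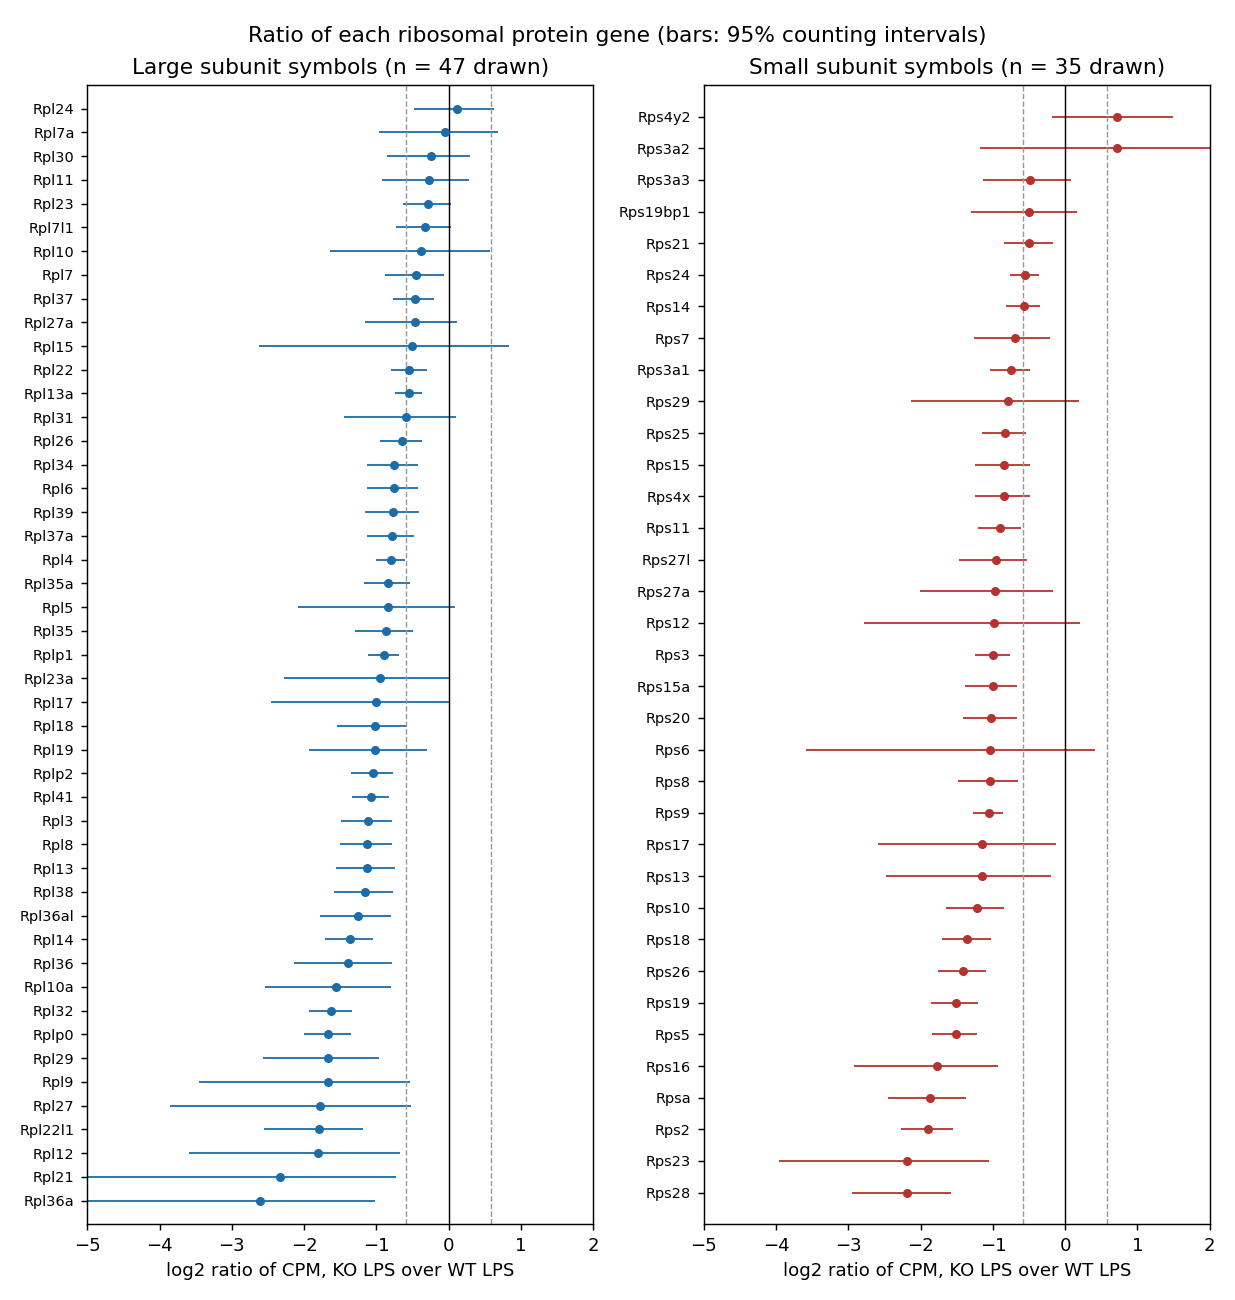
log2 ratio of CPM, KO LPS over WT LPS (x axis) for 47 of the 48 large and for the 35 small subunit symbols, with 95% counting intervals as bars, which for 3 genes run past the axis, and dashed lines at 1.5-fold. The points run from 0.72 for Rps4y2 down to -2.61 for Rpl36a, and most lie left of the dashed line on the lower side.

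Among genes with at least 200 UMIs, Rpl24, Rpl30, Rpl11 and Rpl23 of the large subunit had ratios at the high end. Rpl24, which reaches across to the small subunit, had 35 UMIs in KO cells and 171 in WT cells, or 91.8 CPM (63.9 to 128) and 86.0 CPM (73.6 to 99.9), a log2 ratio of 0.11. Rpl30, which binds a sharp bend in rRNA, had 31 and 194 UMIs (81.3 and 97.5 CPM, log2 ratio -0.24). Rpl11 had 28 and 179 UMIs (73.4 and 90.0 CPM, -0.27), and Rpl23, a protein of the subunit interface, had 89 and 570 UMIs (233 and 287 CPM, -0.29). The counting interval of the ratio held 1 for each of these 4, at 0.644 to 1.02 for Rpl23 with most UMIs. The log2 ratio of Rpl24 changed sign with the cells taken, at -0.53 with each cell thinned to 500 UMIs and 0.51 in cells with at least 1000 UMIs.

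Among genes with at least 200 UMIs, the 5 lowest ratios were split between the subunits. Rps28, which sits near the exit of the mRNA channel, had 20 UMIs in KO cells and 489 in WT cells, or 52.5 CPM (32.0 to 81.0) and 246 CPM (225 to 269), a log2 ratio of -2.19. Rps2, at the entry of that channel, had 69 and 1345 UMIs, 181 CPM (141 to 229) and 676 CPM (641 to 713), a log2 ratio of -1.89. Rpsa, known also as the laminin receptor, had 31 and 598 UMIs (81.3 and 301 CPM, -1.86). Of the large subunit, Rpl22l1 had 20 and 370 UMIs (52.5 and 186 CPM, -1.79), and Rpl29 had 15 and 256 UMIs (39.3 and 129 CPM, -1.67). The highest interval bound of these 5 ratios was 0.514, for Rpl29, below the lowest bound of Rpl24, Rpl30, Rpl11 and Rpl23. Both sets were picked by this ratio, so their distance is no separate result.

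Rplp0, Rplp1 and Rplp2 form the stalk of the large subunit that recruits the elongation factors, with Rplp0 as its base. Rplp0 had 84 UMIs in KO cells and 1395 in WT cells, or 220 CPM (176 to 273) and 701 CPM (665 to 739), a log2 ratio of -1.66. Rplp1 had 532 and 992 CPM (-0.90), and Rplp2 281 and 583 CPM (-1.05). The base therefore had a lower ratio of KO LPS over WT LPS than its partners. It held 21.3% of the UMIs of the stalk genes in KO cells (17.4 to 25.7) and 30.8% in WT cells (29.5 to 32.2). Between the partners, Rplp1 held 65.5% (59.9 to 70.8) and 63.0% (61.3 to 64.7), which did not differ beyond counting error.

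Rpl5 and Rpl11 join the 5S rRNA and, when ribosome assembly is disturbed, bind Mdm2 and stabilise p53. Rpl5 had 9 UMIs in KO cells and 88 in WT cells, or 23.6 CPM (10.8 to 44.8) and 44.2 CPM (35.5 to 54.5), a log2 ratio of -0.84, and with Rpl11 at -0.27 the counts of KO LPS were too few to show whether the 2 differ. Rps6, the substrate of the S6 kinases, had 3 and 37 UMIs, a log2 ratio of -1.04 with a ratio interval of 0.0834 to 1.34, so that no difference could be detected at these counts. Rps3, a protein of the mRNA entry channel with a second role in DNA repair, had 157 and 1643 UMIs (412 and 826 CPM), a log2 ratio of -1.0 (ratio interval 0.420 to 0.587).

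Of the X-linked genes, Rps4x had 168 CPM (129 to 214) in KO cells and 304 CPM (280 to 329) in WT cells, a log2 ratio of -0.85. Rpl39, a very small protein of the exit tunnel, had 178 and 305 CPM (-0.77). Rpl10, which joins the subunit late and shapes its active centre, had 9 and 64 UMIs (-0.38, ratio interval 0.321 to 1.48). Rpl36a had the lowest ratio of all 83 genes, with 2 UMIs in KO cells and 79 in WT cells, a log2 ratio of -2.61 (ratio interval 0.0157 to 0.493). The X-linked genes thus covered much of the range of the whole set.

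Where a ribosomal protein has a second gene, the UMIs counted for each gene of the pair were compared. Near-identical copies elsewhere in the genome were found for Rpl22l1 (2 copies), Rpl36a (4), Rpl36al (1) and Rps27l (1), and how reads that match several places were counted is not known, so these shares are shares of counted UMIs and are uncertain as levels. Rpl22l1 stands in for Rpl22, an RNA-binding protein of the large subunit that is known to repress it. Rpl22 had 149 UMIs in KO cells and 1135 in WT cells (391 and 571 CPM, log2 ratio -0.54). Rpl22l1 made up 11.8% of the UMIs of the pair in KO cells (7.38 to 17.7) and 24.6% in WT cells (22.4 to 26.8). Rpl36al, the autosomal copy of Rpl36a, had 39 and 490 UMIs (-1.25), and Rpl36a made up 4.88% (0.596 to 16.5) and 13.9% (11.1 to 17.0) of that pair, with intervals that overlapped. Rps27l, a gene that p53 induces, had 43 and 442 UMIs (-0.96) and held 97.7% and 96.7% of the UMIs of the pair with Rps27. Rps27 itself had 1 and 15 UMIs, under the minimum, and was not searched for copies. Which gene of this pair has the higher level is therefore not known.

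The look-alikes on the list all had ratios above its upper quartile. Rps4y2 had 17 UMIs in KO cells and 55 in WT cells (44.6 and 27.7 CPM, log2 ratio 0.72, ratio interval 0.877 to 2.82). Rps3a2 had 5 and 17 UMIs (0.71, ratio interval 0.443 to 4.33). Rps4y2 turned to -1.02 in cells of at least 2000 UMIs. Rps3a3, the third pseudogene, had 27 and 200 UMIs (-0.48, ratio interval 0.453 to 1.06). Rps19bp1 had 19 and 143 UMIs (-0.50), and Rpl7l1 had 67 and 442 UMIs (176 and 222 CPM, -0.33), with ratio intervals that held 1. With the pseudogenes, Rps19bp1 and Rpl7l1 left out, 77 of 78 genes were lower in KO cells, with a median log2 ratio of -1.0.

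Many of these genes have near-identical copies in the genome, so that reads can be split or dropped when they are counted, and the rule by which the authors placed such reads is not given in the sources used here. A search of the last 300 bases of each gene's transcripts against GRCm39 found no copy of at least 95% identity over at least 80% of that length for 14 genes, 1 to 4 copies for 29 and 5 or more for 40. Rpl21 had 53 copies with 2 UMIs in KO cells and 65 in WT cells, Rps2 had 47, Rpl7a had 44 with 16 and 89 UMIs, and Rps6 had 34. Levels of such genes are uncertain. The median log2 ratio was -0.88, -1.02 and -0.87 for no copy, 1 to 4 copies and 5 or more, with a Spearman rho of -0.10 between copies and log2 ratio across 83 genes. At least 1.5-fold lower were 8 of 14, 22 of 29 and 32 of 40, against 25.8% of all 9085 genes. Among the 3 classes this share was lowest for genes with no copy.

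Ribosomal proteins that the symbol rule leaves out were also read. Gnb2l1 (Rack1), a scaffold on the small subunit, had 58 UMIs in KO cells and 686 in WT cells, a log2 ratio of -1.17 (ratio interval 0.331 to 0.577). Fau, a fusion that carries the small subunit protein Rps30, had 17 and 107 UMIs (-0.24, ratio interval 0.466 to 1.39).

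Other lists of translation genes were lower as well, and by less in sum. Over the 9085 genes the share lower in KO cells was 48.7%, and the share at least 1.5-fold lower was 25.8%. Of 74 mitochondrial ribosomal protein genes with at least 20 UMIs, 70 were lower in KO cells and 38 (51.4%) by at least 1.5-fold, with a median log2 ratio of -0.65 and a summed ratio of 0.601 (0.561 to 0.643). Elongation factors, genes related to them and other mRNAs of the TOP type numbered 20, of which 19 were lower and 12 (60%) by at least 1.5-fold (median -0.87, summed ratio 0.597, 0.561 to 0.635). Their lowest gene with at least 50 UMIs was Eif5a, a factor that relieves stalled ribosomes, with 23 UMIs in KO cells and 536 in WT cells (-2.13). Their highest was Eef2k, the kinase that switches off the elongation factor Eef2, with 80 and 111 UMIs (1.91). Of 38 initiation and termination factors 32 were lower and 22 (57.9%) by at least 1.5-fold (median -0.61, summed ratio 0.636, 0.606 to 0.668), from Eif3i at -1.93 (9 and 188 UMIs) to Eif2b1 at 0.40 (11 and 45 UMIs).

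The genes listed around the control of TOP mRNAs were not lower as a list. They were mTOR complex members, their inhibitors and targets, RNA-binding proteins, and regulators of transcription such as Myc. Of 22 genes 13 were higher and 9 lower in KO cells, 9 at least 1.5-fold higher, against 26.2% of all genes, and 3 (13.6%) at least 1.5-fold lower, against 25.8%, with a median log2 ratio of 0.36 and a summed ratio of 1.19 (1.10 to 1.28). Pdcd4, an inhibitor of the initiation helicase Eif4a, was the highest, with 100 UMIs in KO cells and 116 in WT cells, or 262 CPM (213 to 319) and 58.3 CPM (48.2 to 70.0), a log2 ratio of 2.17. Tsc1, a brake on mTOR complex 1, had 39 and 77 UMIs (1.41), and Rptor, a subunit of that complex, had 60 and 124 UMIs (1.34). Myc, which drives transcription of ribosomal protein genes, was the lowest, with 8 and 170 UMIs, or 21.0 CPM (9.06 to 41.3) and 85.5 CPM (73.1 to 99.3), a log2 ratio of -1.94. Larp1, which binds the TOP tract, had 49 and 287 UMIs (-0.16, ratio interval 0.644 to 1.21). Also at least 1.5-fold lower were Eif4ebp1, with 9 and 149 UMIs (-1.59), and Akt1s1, with 2 and 48 UMIs (-1.89). Tsc1, Rptor, Larp1, Eif4ebp1 and Akt1s1 were named after their values were seen.

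Short genes at large were lower in KO cells than long ones, and ribosomal protein genes are short. The annotated span of a gene (GENCODE vM39, introns included) had a median of 4.07 kb over 82 of the 83 genes and 26.6 kb over the other genes. Among other genes the median log2 ratio was -0.48 under 2 kb, -0.34 at 2 to 5 kb, -0.32 at 5 to 10 kb, -0.10 at 10 to 30 kb, 0.21 at 30 to 100 kb and 0.52 at 100 kb or more. The ribosomal protein genes lay below the other genes in each of the 5 classes that held any, at -0.79 (7 genes), -1.05 (42), -0.79 (24), -1.02 (6) and -1.0 (3). The part of gene length in the lower share was not tested further.

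**Figure D5:**
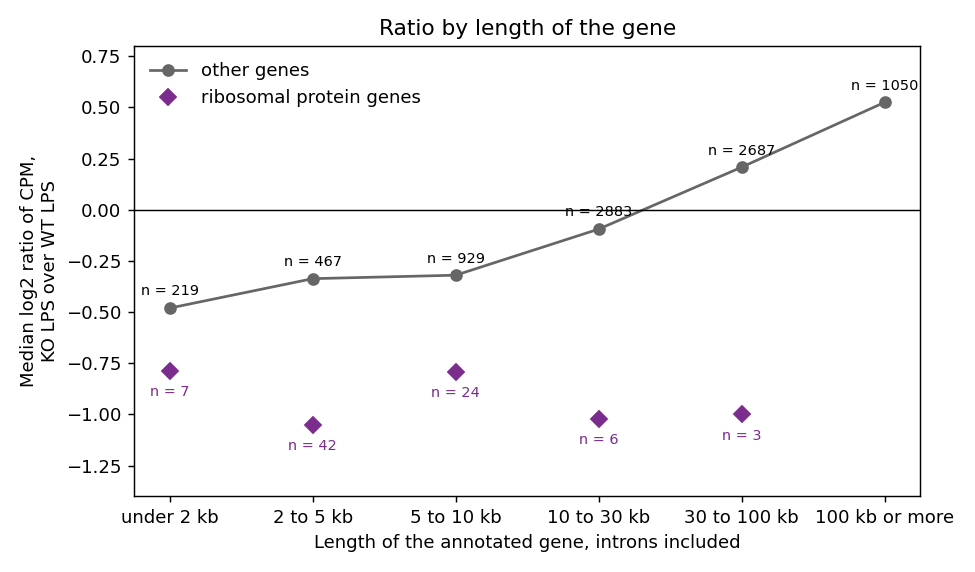
Median log2 ratio of CPM, KO LPS over WT LPS (y axis) by annotated length of the gene (x axis), for ribosomal protein genes as diamonds and other genes as a grey line, with the number of genes beside each point. Other genes run from -0.48 in the shortest class to 0.52 in the longest, and the ribosomal protein genes lie between -0.79 and -1.05 without such a trend.

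Transcript classes that often move with the state of a captured cell were set beside the ribosomal protein share. Mitochondrially encoded genes summed to 39231 CPM in KO cells and 51639 CPM in WT cells (ratio 0.760), while the median log2 ratio of the 21 genes was 1.40 and so of the opposite sign. The nuclear RNA Malat1 was at 45030 and 41190 CPM (ratio 1.09). Across cells, the ribosomal protein share ran against the Malat1 share, with a Pearson r of -0.46 in KO cells (320 cells) and -0.67 in WT cells (1427 cells), and in cells with at least 1000 UMIs -0.52 and -0.62. With the mitochondrial share r was 0.100 and -0.28. The part of these classes in the difference between libraries was not tested.

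Large and small subunit transcripts varied together from cell to cell. Across cells the share of large subunit UMIs and that of small subunit UMIs had a Pearson r of 0.583 in KO cells and 0.672 in WT cells, and in cells with at least 1000 UMIs 0.573 and 0.663. The ribosomal protein share ran with that of elongation factors and TOP-type partners at r = 0.329 and 0.397, and with that of mitochondrial ribosomal proteins at r = 0.209 and 0.336. All of these shares have the same denominator and the cells of a library share its free RNA, so the values are descriptions of the libraries only.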

How the data were processed

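Single-cell 3′ tag counts of 1 library per genotype were analysed. The authors deposited raw UMI counts per gene and barcode without normalisation, with 9999 barcodes per library, and missing values were read as 0. The submitters' processing notes name bcl2fastq 2.0, STAR and the builds mm9 and mm10. The counting program, its annotation and its use of strand are not given in the sources used here, so counts of overlapping genes are uncertain. The cells number fewer than those the study clustered, whose caller was not rerun here.

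UMIs were summed over the cells of a library with scipy 1.17.1 and numpy 2.4.6 under Python 3.11.15. CPM have exact Poisson intervals, shares exact Clopper-Pearson intervals and ratios exact conditional binomial intervals, all at 95% and for counting error only. log2 ratios used a prior count of 0.5. The calculation was checked on simulated counts. Doublets were left in, with the deepest 1 percent of cells left out as an alternative.

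The members and lists were chosen with earlier results of these data known. Named genes followed a fixed rule: the 5 highest and 5 lowest ratios among members with at least 200 UMIs, the 3 with most UMIs, X-linked, paralog, stalk and 5S genes, Rpsa, Rps6, Rps3 and Rpl13a, Park7, and the highest and lowest gene with at least 50 UMIs of each translation list. Alternatives (13 planned, 4 added) changed the cell minimum, depth, scaling, free RNA, gene minimum, prior count and sex of the cells. Gene lengths and copies used GRCm39, starts RefSeq on GRCm38.p6. A few genes that the naming rule picks, 1 of them a large subunit gene that is also left out of the plot of ratios by gene, are not reported here.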

Additional observations from a re-analysis of the deposited data

How the results depend on the processing

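No paired analysis was possible because each genotype had 1 library. The ratio of the ribosomal protein share (0.514) stayed below 1 under each of the alternatives run for it, from 0.479 to 0.574: it was 0.497 with free RNA subtracted, 0.498 in cells with Xist UMIs, 0.479 in cells that had a Y-linked UMI but none of Xist (12 KO and 195 WT cells), and 0.574, 0.533 and 0.530 in cells of 500 up to 750, 750 up to 1000 and 1000 up to 2000 UMIs. The subtraction of free RNA was small and of unequal size in the libraries. The depth classes were chosen after seeing the data. The median log2 ratio (-0.97) stayed below 0, at -0.91 in cells with at least 1000 UMIs, -1.02 in cells with Xist UMIs, -0.74 in cells with Y-linked UMIs, -0.84 with a prior count of 2, and -0.77, -0.92 and -0.85 in cells of 500 up to 750, 750 up to 1000 and at least 2000 UMIs. The count of genes at least 1.5-fold lower (62 of 83) was 39 of 62 that reached the minimum in cells with Y-linked UMIs, 35 of 54 at 500 up to 750 UMIs and 40 of 59 at 750 up to 1000 UMIs. As shares of the genes that reached the minimum these were 62.9%, 64.8% and 67.8%, against 74.7% over all cells, while the share of all genes at least 1.5-fold lower was 34.9%, 29.3% and 29.8%, against 25.8%, so the gap between the family and all genes was narrower in these cells, and the cause was not tested. The quotient of large over small subunit (1.11) was 1.21 in cells with Y-linked UMIs and turned to 0.976 at 500 up to 750 UMIs, and the cause was not tested. Of 330 values of named genes that differed by at least 1.5-fold over all cells, 6 had the opposite sign: Rps27l, Rpl5 and Rps6 in cells with Y-linked UMIs (0.31, 0.71 and 1.24), Rps6 at 500 up to 750 UMIs (0.38), and Rps4y2 and Rpl5 at 2000 or more UMIs (-1.02 and 0.16). Of 165 values of the 11 named genes within 1.5-fold, 22 had the opposite sign, in 9 genes. Among them was Rpl24 (0.11 over all cells), at -0.06 in cells with at least 300 UMIs, -0.53 with cells thinned to 500 UMIs and -0.19 as the mean of single-cell values. Rpl30 and Rpl10 (-0.24 and -0.38) were at 0.02 and 0.03 in cells with at least 1000 UMIs. The direction of these genes is uncertain, although Rpl30 and Rpl10 count among the 80 lower genes. The spread between mice cannot be estimated, and the KO library holds 3 or fewer UMIs of Rps6, Rpl21 and Rpl36a, whose ratios are wide for that reason.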

Other observations

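Of the symbols marked "-ps", which the rule leaves out, 11 of 24 had at least 20 UMIs over both libraries, and 7 of the 11 were at least 1.5-fold lower in KO cells, against 25.8% of the 9085 genes, with a median log2 ratio of -0.81. Rpl10-ps3 was higher, with 19 UMIs in KO cells and 48 in WT cells (log2 ratio 1.07). Its parent gene Rpl10 had 9 and 64 UMIs (-0.38), with a ratio interval of 0.321 to 1.48 that held 1. The gene was named after its value was seen, and reads of the parent and the pseudogene could not be told apart here.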
